A study of Mus musculus with 16 samples.

Results

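The genes described here encode the constitutive proteasome: the subunits of its core and regulatory particles, its activators and inhibitor, and the factors that assemble it. They were chosen by symbol alone (Psma, Psmb, Psmc, Psmd or Psmg followed by a number, plus Psme3, Psme4, Psmf1, Pomp and Adrm1), leaving out the interferon-inducible Psmb8, Psmb9 and Psmb10 and the thymus-specific Psmb11. This gave 44 of the 47643 genes in the table, of which 43 passed the filter for testing (a mean TPM of at least 1 over all samples, TPM being a gene's length-corrected share of the transcripts of its sample). The member that did not pass was Psma8, a paralog of the core subunit Psma7 known from testis, which lay between 0 and 0.112 TPM.

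RNA was sequenced from the tibialis anterior muscle of C57BL6/J mice labelled as male, in 4 groups of 4 samples: WT and UBR4 mKO at 6 months and at 24 months. UBR4 mKO mice carry homozygous floxed Ubr4 and a tamoxifen-inducible Cre under the ACTA1 promoter, which acts in skeletal muscle fibers, so that the other cells of the muscle keep the gene. WT mice carry the same floxed alleles without the Cre, and both genotypes were given tamoxifen. UBR4 is a large E3 ubiquitin ligase, and the question for the proteasome genes was how their mRNA levels differ with the loss of UBR4 and with age.

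The proteasome degrades ubiquitinated proteins inside a barrel of stacked alpha and beta rings, whose sites in Psmb5 (chymotrypsin-like), Psmb6 (caspase-like) and Psmb7 (trypsin-like) cut the substrate. The regulatory particle caps the barrel: its base holds a ring of ATPases (Psmc1 to Psmc6) that unfold substrates together with scaffold and ubiquitin-binding subunits, and its lid carries the deubiquitinase Psmd14. In skeletal muscle this machinery turns over contractile proteins, and its genes are known to be induced together by the transcription factor NFE2L1 when proteasome capacity falls short.

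RefSeq held a promoter (250 bases before the transcription start and 50 after it, build GRCm38.p6) for 36 of the 44 members. Those of Psmd11, Pomp, Psmc6 and Psmd8 and of Psmb5, the most abundant member, are shown. Psmd11 was called with age in WT after the scaling described below, Psmd8 with age in UBR4 mKO, and Psmc6 and Pomp in the interaction of genotype and age. In none of these was the share of members called above that of all genes. Capitals mark a match to the antioxidant response element core, the half-site that NFE2L1 and NFE2L2 can bind. They lie at chr11:80428365-80428664 (plus strand), chr5:147860378-147860677 (plus), chr14:45329574-45329873 (plus), chr7:29180624-29180923 (minus) and chr14:54617946-54618245 (minus), in this order.
Psmd11: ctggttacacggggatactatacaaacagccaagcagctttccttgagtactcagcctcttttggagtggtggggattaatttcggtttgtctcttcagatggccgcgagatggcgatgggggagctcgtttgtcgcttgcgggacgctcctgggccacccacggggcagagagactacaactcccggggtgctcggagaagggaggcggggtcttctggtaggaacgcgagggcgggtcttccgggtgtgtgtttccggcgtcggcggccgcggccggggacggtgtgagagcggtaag
Pomp: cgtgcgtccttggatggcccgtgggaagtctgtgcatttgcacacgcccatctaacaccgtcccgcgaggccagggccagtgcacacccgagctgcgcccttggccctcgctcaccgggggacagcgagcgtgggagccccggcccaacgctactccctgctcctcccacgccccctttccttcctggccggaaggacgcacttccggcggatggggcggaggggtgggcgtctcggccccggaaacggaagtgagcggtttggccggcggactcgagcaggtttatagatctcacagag
Psmc6: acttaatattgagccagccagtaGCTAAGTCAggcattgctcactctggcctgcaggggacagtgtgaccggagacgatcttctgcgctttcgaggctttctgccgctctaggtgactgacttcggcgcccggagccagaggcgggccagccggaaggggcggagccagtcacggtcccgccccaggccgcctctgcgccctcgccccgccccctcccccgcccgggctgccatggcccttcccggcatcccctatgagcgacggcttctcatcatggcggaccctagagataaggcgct
Psmd8: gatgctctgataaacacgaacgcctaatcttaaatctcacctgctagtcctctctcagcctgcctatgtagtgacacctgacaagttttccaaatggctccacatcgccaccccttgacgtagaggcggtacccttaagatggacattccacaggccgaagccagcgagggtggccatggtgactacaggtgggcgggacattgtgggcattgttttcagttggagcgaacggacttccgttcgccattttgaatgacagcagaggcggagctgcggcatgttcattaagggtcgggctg
Psmb5: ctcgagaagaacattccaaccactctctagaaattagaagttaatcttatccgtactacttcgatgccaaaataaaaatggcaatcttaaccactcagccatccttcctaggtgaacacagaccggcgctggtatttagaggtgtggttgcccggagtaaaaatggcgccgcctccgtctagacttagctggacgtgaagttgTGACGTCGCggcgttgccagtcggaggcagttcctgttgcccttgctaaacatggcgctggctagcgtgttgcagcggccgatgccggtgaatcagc
The core (TGACNNNGC, either strand) was found in 7 of the 36 member promoters (19.4%), beside 14.0% of all 27025 promoters and 17.4% of the 8106 promoters of tested genes. It was present in the promoters of Psmb5 and Psmb6 (47 and 9 bases before the start), of Psmc6 (227 bases before it, on the opposite strand), and of Adrm1, Psmd9, Psmd12 and Psme4. The NF-Y box CCAAT, which like the other motifs contains none of the others, was in 13 of 36 (36.1%, beside 41.1% of all promoters), and the FOXO core TGTTTAC was in 0 of 36 (beside 4.05%). These shares describe letters in a window and not binding.

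The targeted gene was examined first. Ubr4 (chr4:139352609-139489588, GRCm38, plus strand) was at 11.1, 15.7, 13.2 and 9.09 TPM in WT and at 4.98, 4.91, 5.51 and 6.54 TPM in UBR4 mKO at 6 months, and at 17.2, 17.0, 17.8 and 21.1 against 10.1, 14.6, 4.28 and 7.63 TPM at 24 months. UBR4 mKO samples lay below every WT sample of the same age (exact two-sided permutation test, p = 0.0286 at each age, the smallest p that 4 against 4 allows). The value covers the whole gene and not only the deleted part, and the annotation places Emc1 (9.62 TPM) over 26122 bases of Ubr4 on the same strand. All 10 myofiber markers were present in every group (77812 to 105259 TPM in sum). The sum of the 7 leukocyte markers was 13.9 to 20.5 TPM in WT at 6 months, 46.8 to 160 in UBR4 mKO at 6 months, 26.6 to 55.1 in WT at 24 months and 66.1 to 284 in UBR4 mKO at 24 months, most of it from Lyz2, and Cd3e was at 0 in all WT samples at 6 months. Although all samples are labelled male, the female-specific RNA Xist was at 0.711 to 23.8 TPM in the 6-month samples and at most 0.0252 TPM in the 24-month samples, and 1 sample (UBR4 mKO at 6 months, sample 4) had almost no RNA of the Y-linked Ddx3y (0.0730 TPM). All WT samples at 6 months carried both Xist and Y-linked RNA, and the Y-linked Eif2s3y was at 1.69 to 9.88 TPM in them but at 14.5 to 18.4 TPM in UBR4 mKO samples 1 to 3 of that age. Xist separates the ages, so sex-linked RNA and age cannot be told apart. At 6 months Y-linked RNA was uneven between samples. The genotypes overlapped there in Ddx3y, Eif2s3y, Kdm5d and Uty, and none of these was called (lowest adjusted p = 0.190 by limma, for Kdm5d). The part of Y-linked RNA in the results at 6 months is addressed only by the covariate and the left-out sample given below.

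TPM is a share of each sample's RNA, and that share moved between groups. Genes of the mitochondrial genome took 56.3% ± 3.01 (SD, n = 4) of TPM in WT at 6 months, but 47.9% ± 1.71 in UBR4 mKO at 6 months, 50.1% ± 1.85 in WT at 24 months and 48.6% ± 1.57 in UBR4 mKO at 24 months (exact two-sided permutation test of the first against the second and of the first against the third, p = 0.0286 each). The median of all 10628 genes tested was also higher by 0.33 (log2) in UBR4 mKO than in WT at 6 months and by 0.26 in WT at 24 than at 6 months, so the changes below should be read beside this median, and the members' counts and leading genes are also given after median-of-ratios scaling, which takes the typical gene as the reference and brought both medians to -0.018 and -0.0042. Since the tissue was sequenced in bulk, fewer cells of a type and less RNA per cell cannot be told apart.

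**Figure D1:**
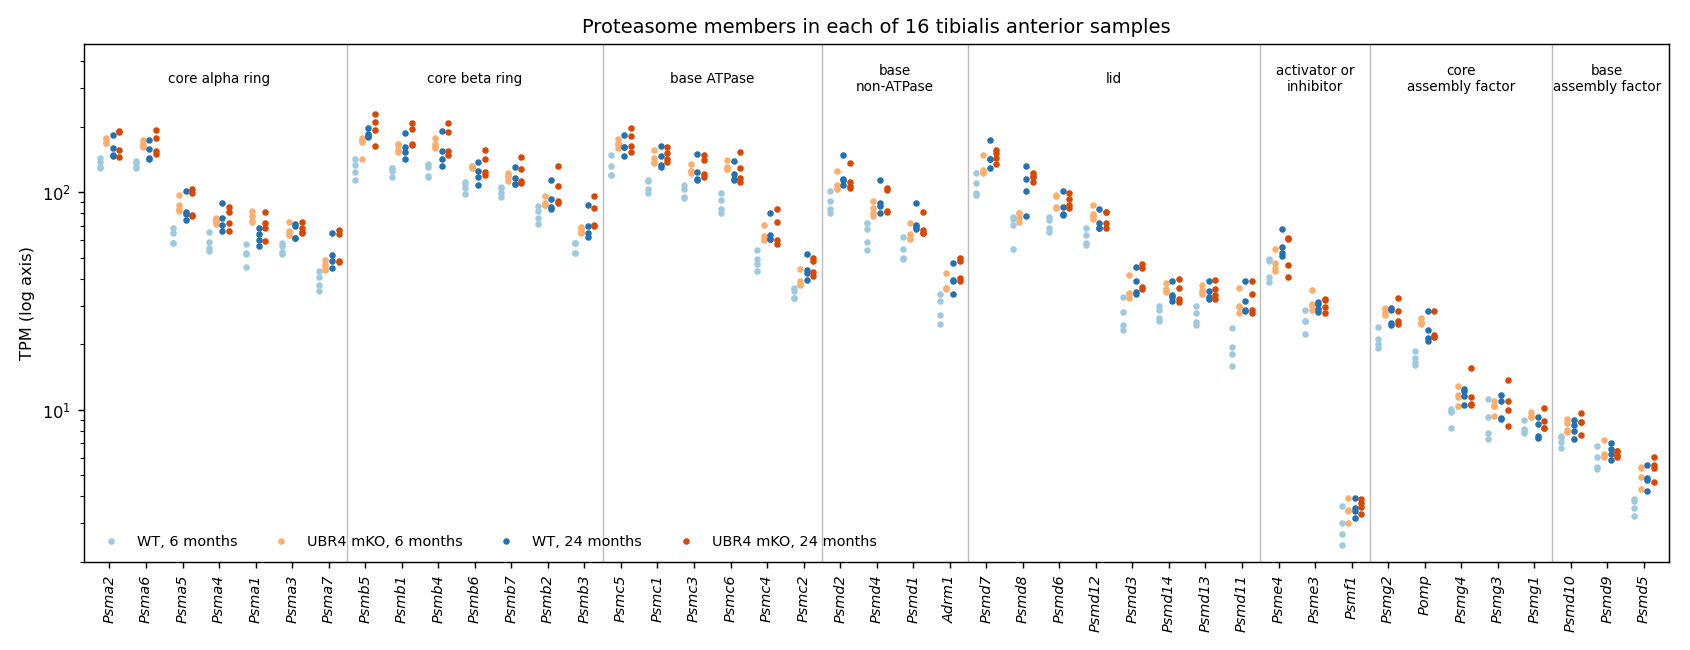
Level of each of the 43 tested members (TPM, log axis), with members ordered by role and the 16 samples as points coloured by group. Core and ATPase subunits sit mostly above 50 TPM, and most assembly factors and Psmf1 lie around or below 10 TPM.

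Muscle expressed the subunits of the particle at far higher levels than the factors that build it. TPM corrects for transcript length, so levels can be set side by side. The mean over 16 samples had a median of 123 TPM over the 7 beta subunits, 119 TPM over the 6 base ATPases, 71.0 TPM over the 7 tested alpha subunits, 74.2 TPM over the 4 other base subunits and 54.1 TPM over the 8 lid subunits. In contrast, the median was 11.2 TPM over the 5 core assembly factors and 6.27 TPM over the 3 base assembly factors. The 3 regulators that bind the ends of the barrel were spread widely: Psme4, an activator that opens the core without ATP, averaged 50.2 TPM, the nuclear activator Psme3 29.3 TPM and the inhibitor Psmf1 3.38 TPM.

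Within the rings, the base and the lid the highest and the lowest member of a role were well apart. Psmb5 was the most abundant member at 169 TPM and Psmb3, a non-catalytic beta subunit, the lowest of its ring at 68.4 TPM. Among the alpha subunits Psma2 averaged 159 TPM and Psma7 48.6 TPM. The ATPase Psmc5 averaged 158 TPM and the ATPase Psmc2 41.0 TPM. Psmd2, a scaffold of the base, averaged 109 TPM and the ubiquitin receptor Adrm1 37.9 TPM. The lid ran from Psmd7, the partner of the deubiquitinase, at 133 TPM to Psmd11, which clamps lid, base and core together, at 28.6 TPM. Pomp, the chaperone that guides assembly of the beta ring and is degraded by the finished core, averaged 22.4 TPM, and its partners Psmg2 and Psmg1, which form a dimer on the alpha ring, averaged 26.1 and 8.68 TPM. Replicates were close: the median SD within groups was 0.142 (log2) over the tested members, beside 0.201 over all genes tested, and 0.158 beside 0.167 after scaling.

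UBR4 mKO was compared with WT at 6 months, in young muscle. All 43 tested members were higher in UBR4 mKO, by 0.10 to 0.69 on the log2 scale, and 30 of them rose past the threshold (adjusted p under 0.05, limma) while 0 fell. The typical gene in these muscles was also higher: 44.9% of all genes tested were called (43.7% higher), and the members' median of 0.35 lay beside 0.33 for all genes. At an unadjusted p under 0.05 there were 35 members (55.5% of all genes). After median-of-ratios scaling the members' median was -0.0080, 0 of 43 were called (16.8% of all genes) and 5 had an unadjusted p under 0.05 (31.9% of all genes). TPM of UBR4 mKO and WT did not overlap for 34 of 43 members (39.0% of all genes), and after scaling this held for 3 higher (Psma1, Psmc6 and Psmd11) and 4 lower members (Psmb2, Psme4, Psmg1 and Psmd9), beside 11.4% and 16.3% of all genes. The log2 fold changes of the members had an SD of 0.12, against 0.36 for all genes tested, which include genes down to a mean of 1 TPM. Genes of like level were not compared.

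**Figure D2:**
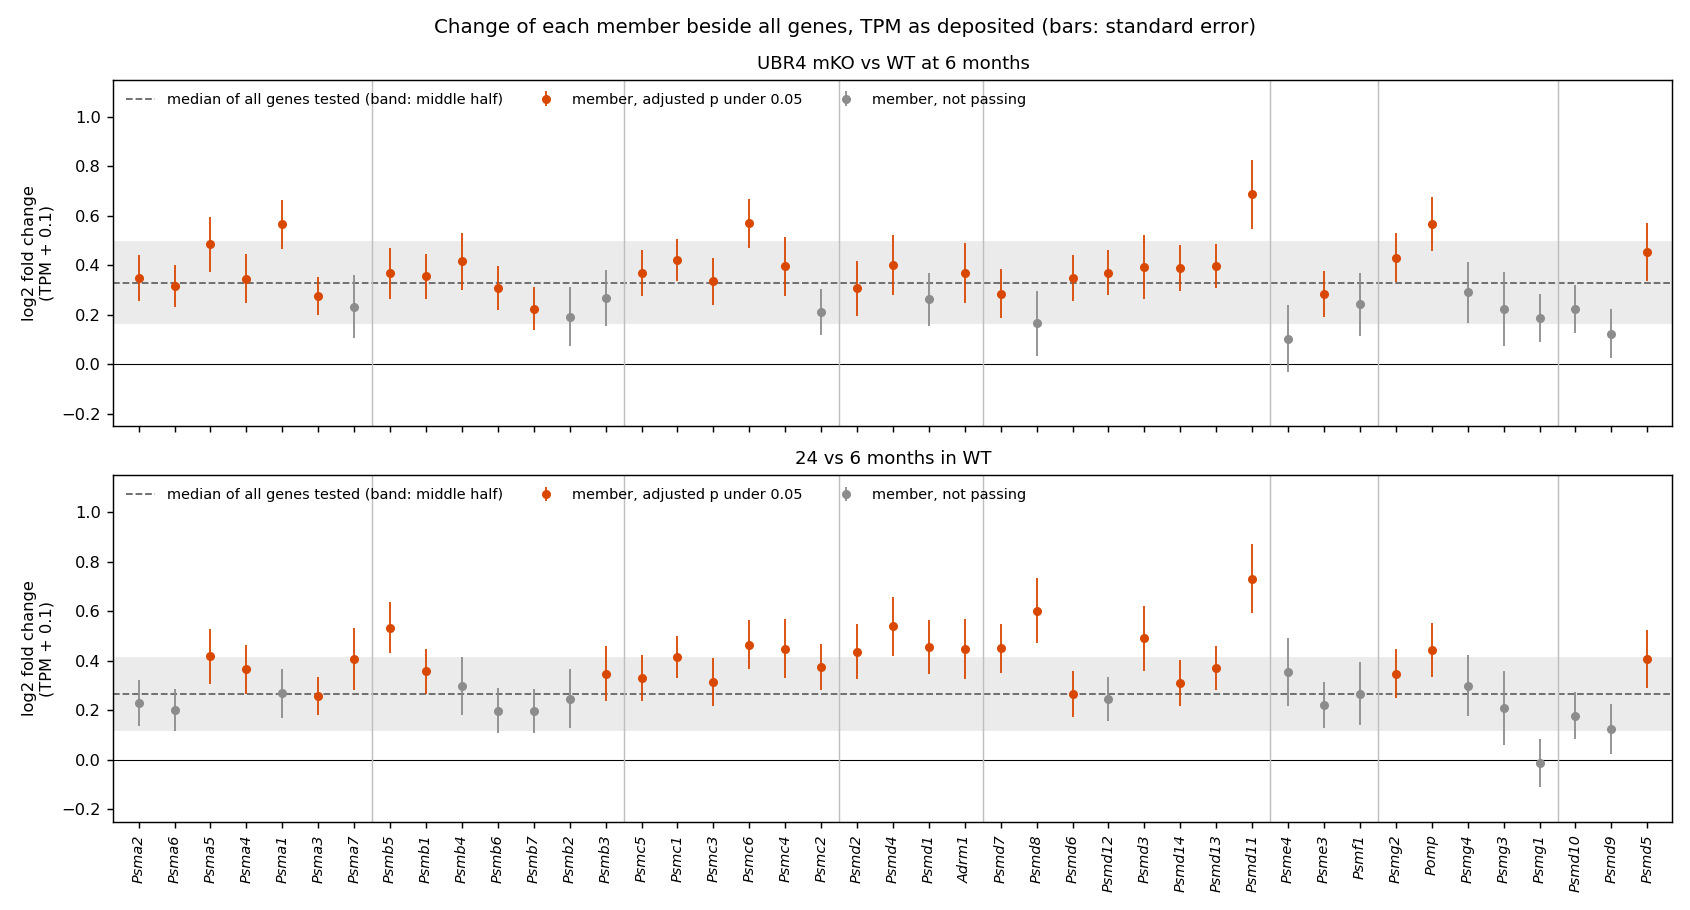
log2 fold change (± SE) of each tested member, for UBR4 mKO against WT at 6 months and for 24 against 6 months in WT, in TPM as deposited; orange points passed an adjusted p of 0.05, the dashed line is the median of all genes tested and the band their middle 50%. Most members lie close to the dashed line, with Psmd11 highest above it in both panels.

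Psmd11 showed the largest difference of all members at 6 months. Its mRNA was at 19.5, 23.8, 17.97 and 15.9 TPM in WT and at 29.9, 27.7, 29.7 and 36.2 TPM in UBR4 mKO. Every UBR4 mKO sample was above every WT sample, both in TPM and after scaling. This is a log2 fold change of 0.69 ± 0.14 (SE, adjusted p = 0.00188), or 0.33 after scaling (adjusted p = 0.0515). As a share of the TPM of all lid genes, Psmd11 made up 4.67% in WT and 5.96% in UBR4 mKO. A near-identical transcript, A730017L22Rik (98.1% identity), was listed at a mean of 0.460 TPM, and how reads that match both were assigned is not given in the sources used here.

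3 further members rose by nearly equal amounts, below that of Psmd11. The ATPase Psmc6 was at 91.9, 99.1, 83.4 and 80.6 TPM in WT and at 128, 127, 131 and 140.1 TPM in UBR4 mKO (0.57 ± 0.10, adjusted p = 0.000671). Pomp was at 17.3, 18.6, 16.5 and 16.1 TPM in WT and at 26.4, 25.3, 25.2 and 24.7 TPM in UBR4 mKO (0.57 ± 0.11, adjusted p = 0.00131). The alpha subunit Psma1 was at 52.1, 58.0, 52.3 and 45.1 TPM in WT and at 74.0, 73.0, 77.9 and 81.8 TPM in UBR4 mKO (0.57 ± 0.10, adjusted p = 0.000678). In each of them the lowest UBR4 mKO sample was above the highest WT sample, with room between. After scaling the differences were 0.22, 0.21 and 0.21, with adjusted p of 0.063, 0.26 and 0.091. The alpha subunit Psma5 came next, from 58.2 to 68.6 TPM in WT to between 81.8 and 97.4 TPM in UBR4 mKO (0.49 ± 0.11, adjusted p = 0.00368, and 0.13 after scaling, adjusted p = 0.479).

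By role, the calls in TPM as deposited ran through the whole particle, beside 44.9% of all genes called (43.7% higher). Among core subunits, 6 of 7 alpha and 5 of 7 beta genes rose, including the catalytic subunits Psmb5 (0.37, adjusted p = 0.0101), Psmb6 (0.31, adjusted p = 0.0136) and Psmb7 (0.22, adjusted p = 0.0453). Among regulatory particle genes, 5 of 6 ATPases, 3 of 4 other base subunits and 7 of 8 lid subunits rose. Psmb6 was at 111, 109, 97.8 and 104 TPM in WT and at 129, 129, 133 and 132 TPM in UBR4 mKO, and Psmb7 at 105, 105, 95.1 and 99.4 TPM against 113, 118, 119 and 122 TPM, without overlap. Psmb5 overlapped, since UBR4 mKO sample 4 (141 TPM) was level with WT sample 2 (142 TPM). After scaling 0 members of any role were called, beside 16.8% of all genes, and Psmb5, Psmb6 and Psmb7 stood at 0.01, -0.045 and -0.13. The called members farthest below the typical gene were Psmb7, Psma3 (0.28), Psme3 (0.28), Psmd7 (0.28) and Psmd2 (0.31), each of which was below 0 after scaling.

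Among regulators and assembly factors 1 of 3 regulators, 2 of 5 core and 1 of 3 base assembly factors rose, beside 43.7% of all genes called higher. None of these counts exceeded that share, and the difference between roles was not tested. Of the 3 regulators Psme3 rose (adjusted p = 0.0214), while Psme4 differed by 0.10 ± 0.14 (adjusted p = 0.523) and Psmf1 by 0.24 ± 0.13 (adjusted p = 0.119). Psme4 was at 48.3, 49.4, 40.6 and 38.8 TPM in WT and at 47.5, 44.7, 43.2 and 54.7 TPM in UBR4 mKO, so the groups overlapped in TPM, and after scaling the highest UBR4 mKO sample was still under the lowest WT sample (-0.25, adjusted p = 0.087). Of the core assembly factors Pomp and Psmg2 (0.43, adjusted p = 0.00376) rose, the latter from between 19.3 and 24.1 TPM to between 27.3 and 29.4 TPM (0.08 after scaling, adjusted p = 0.65), while Psmg1 stood at 0.19 (adjusted p = 0.116). Of the factors that assemble the base, Psmd5 rose (0.45, adjusted p = 0.00675, and 0.11 after scaling, adjusted p = 0.48), while Psmd10, also known as gankyrin, stood at 0.22 (adjusted p = 0.0665) and Psmd9 at 0.12 (adjusted p = 0.299). Scaled Psmd9 was lower in every UBR4 mKO sample than in every WT sample (-0.22, adjusted p = 0.061).

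Leukocyte markers moved with this comparison: 4 of 4 tested markers were called higher on both scales. In TPM as deposited, where 43.7% of all genes were called higher, so were 3 of 5 endothelial, 3 of 5 fibroblast and 4 of 10 myofiber markers, and none of the tested markers of adipocytes, Schwann cells, tendon, smooth muscle, satellite cells or blood. After scaling 6.66% of all genes were called higher and 10.2% lower. Of the markers 0 endothelial and 1 fibroblast marker were then called higher, and 1 myofiber marker was higher and 3 lower. Further, 1 marker each of Schwann cells, smooth muscle and satellite cells was lower. Their part in the members' differences was not tested. Without the UBR4 mKO sample that lacked Y-linked RNA, 23 of 43 members were called, beside 30.5% of all genes. With a Y-linked covariate in the fit, chosen after seeing the data, 30 were called, beside 44.1% of all genes. With only the 2 groups in the fit and after scaling, an alternative chosen after seeing the data, 5 members were called: Psma1, Psmc6 and Psmd11 higher, and Psme4 and Psmd9 lower. In that fit 24.5% of all genes were called.

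**Figure D3:**
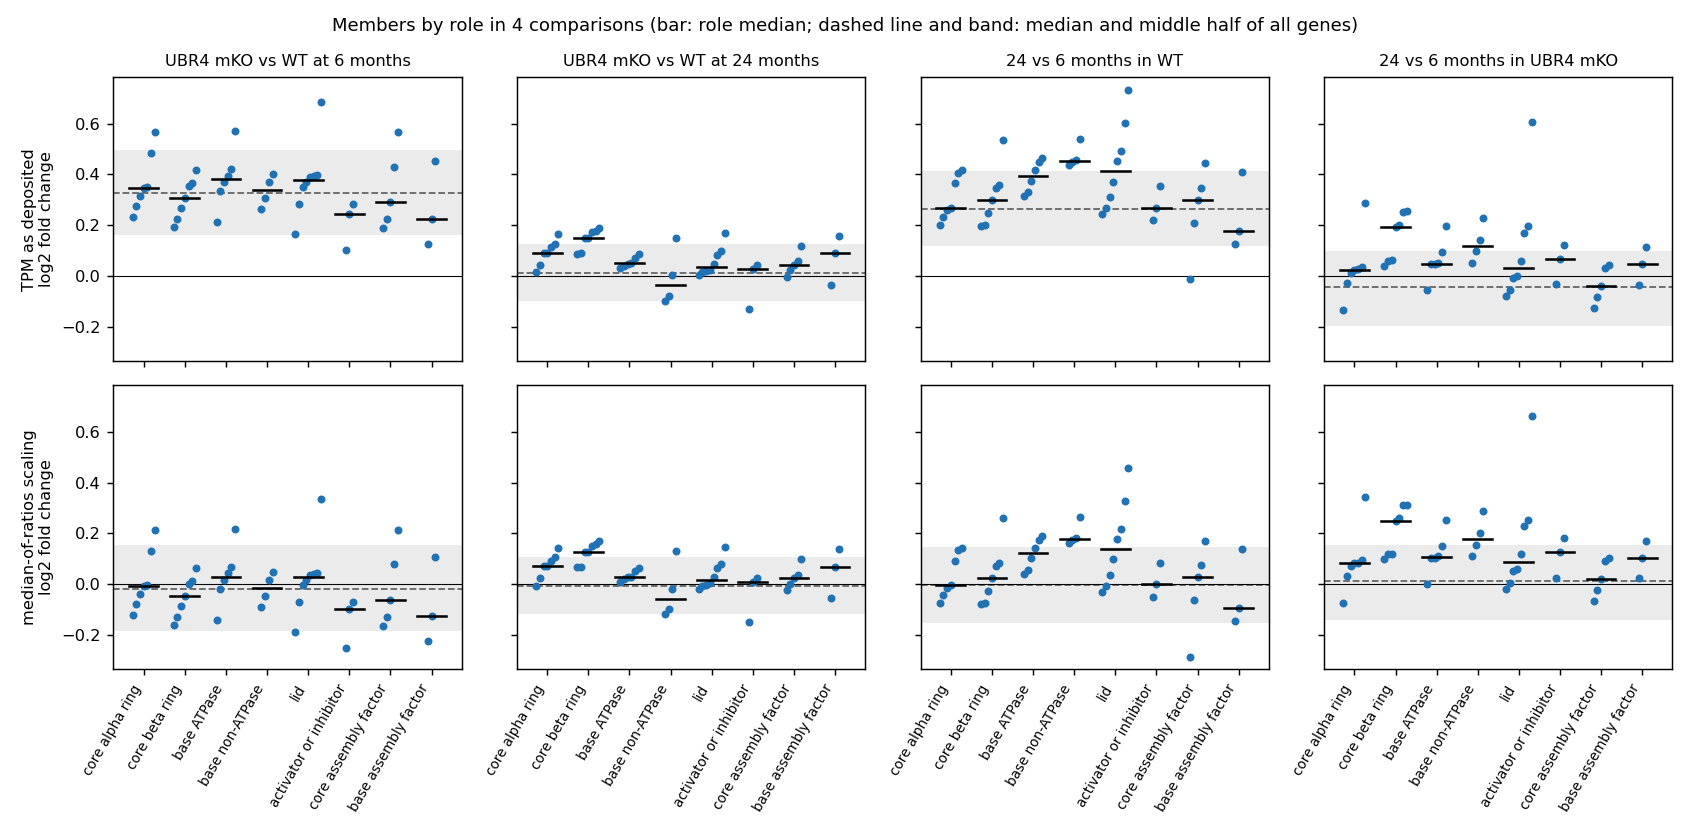
log2 fold changes of the members by role in the 4 comparisons, in TPM as deposited (top) and after median-of-ratios scaling (bottom); points are members, bars role medians, the dashed line the median of all genes tested and the band their middle 50%. In the top row the members lie above 0 in the comparison of genotypes at 6 months and almost all do in that of ages in WT, and in the bottom row their median is -0.0080 between genotypes at 6 months, 0.038 at 24 months, 0.074 for age in WT and 0.10 for age in UBR4 mKO.

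UBR4 mKO was then compared with WT at 24 months, in old muscle. No member was called (0 of 43 by limma, beside 0.630% of all genes), and 0 had an unadjusted p under 0.05 (10.1% of all genes). The rank test of the study's methods called 0.00% of all genes here, so its 0 members say nothing about them. The genotypes overlapped for every tested member, while 4.29% of all genes were higher and 1.51% lower without overlap. The log2 fold changes ran from -0.13 (Psme4) to 0.19 (Psmb1, adjusted p = 0.503) with a median of 0.059, beside 0.013 for all genes, and no call arose after scaling either (0.913% of all genes, with 0 members at an unadjusted p under 0.05, beside 13.4%).

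Of the 4 members that differed most at 6 months, Psmd11, Psmc6 and Pomp had close mean levels in both genotypes at 24 months, and Psma1 differed more. Psmd11 was at 31.5, 28.5, 28.8 and 39.2 TPM in WT and at 28.7, 27.8, 34.0 and 38.9 TPM in UBR4 mKO (0.015 ± 0.14). Psmc6 was at 121, 114, 116 and 139.8 TPM in WT and at 129, 112, 116 and 152 TPM in UBR4 mKO (0.048 ± 0.10). Pomp was at 23.3, 21.4, 20.7 and 28.6 TPM in WT and at 21.6, 21.6, 28.5 and 22.0 TPM in UBR4 mKO (-0.0016 ± 0.11). The ranges of the genotypes overlapped for each of them, and the group means at 24 months lay near those of young UBR4 mKO muscle. Psma1 was at 64.4, 60.5, 56.5 and 68.4 TPM in WT and at 68.3, 59.3, 72.5 and 81.0 TPM in UBR4 mKO (0.16 ± 0.10, adjusted p = 0.656). Its genotypes overlapped, and all old WT samples were below the young UBR4 mKO samples. All 14 tested core subunits had a log2 fold change above 0 (median 0.12), none of them called. All 8 lid subunits and all 6 ATPases were above 0 as well, with medians of 0.036 and 0.050, beside 53.1% of all genes above 0, while the median of the 4 other base subunits was -0.036. After scaling 13 of 14 core subunits, 6 of 6 ATPases, 1 of 4 other base subunits and 5 of 8 lid subunits were above 0, beside 47.8% of all genes. Members share their samples, so these counts are not separate evidence. UBR4 mKO sample 3 had a scaled sum of all members of 4115, beside 2870, 3015 and 3353 in samples 1, 2 and 4. WT samples ranged from 3015 to 3546. Without that UBR4 mKO sample the members' median in TPM as deposited was 0.023, the lowest of the fits that left out 1 sample.

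**Figure D4:**
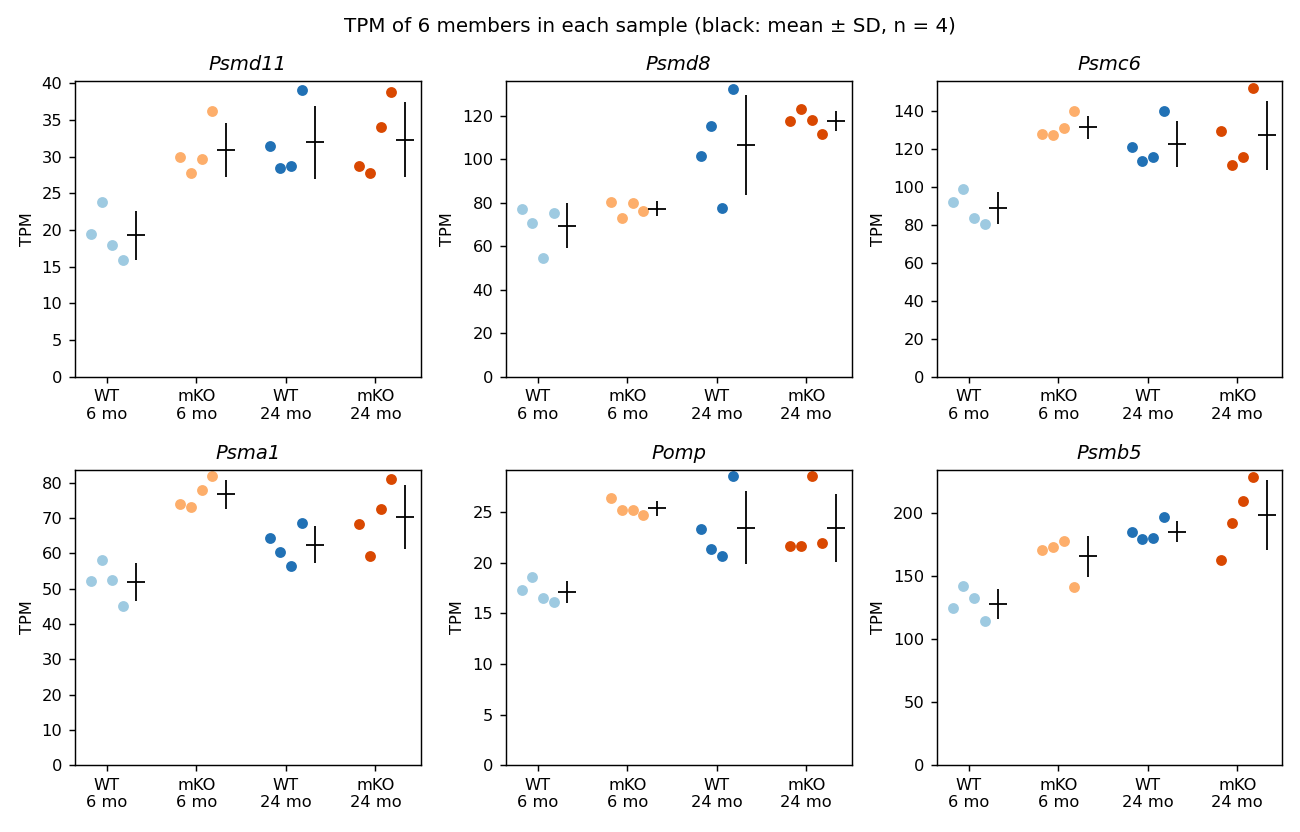
TPM of Psmd11, Psmd8, Psmc6, Psma1, Pomp and Psmb5 in each sample by group, with the mean ± SD (n = 4) in black. For Psmd11, Psmc6 and Pomp the WT samples at 6 months form the low group, while Psmd8 is high in both groups at 24 months.

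Age was compared within WT, 24 against 6 months. Of the 43 tested members 42 were higher at 24 months, 27 rose past the threshold and 0 fell, beside 25.1% of all genes called (24.0% higher). The median was 0.35, beside 0.26 for all genes. At an unadjusted p under 0.05 there were 37 members (44.2% of all genes), and groups did not overlap for 32 (24.1% of all genes). After scaling the median was 0.074, beside -0.0042 for all genes, and 1 member, Psmd11, was called higher (9.77% of all genes in either direction), with 6 members at an unadjusted p under 0.05 (25.8% of all genes). Scaled values did not overlap for 4 higher (Psmb5, Psmc6, Psmd3 and Psmd11) and 1 lower member (Psmg1), beside 10.1% and 12.0% of all genes. This comparison and that of the genotypes at 6 months share the WT samples at 6 months, so their values are given side by side and not as separate evidence.

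The regulatory particle held most of the calls with age. All 6 ATPases, all 4 other base subunits and 7 of 8 lid subunits rose, that is 17 of 18, while 4 of 7 alpha and 3 of 7 beta subunits rose, that is 7 of 14, beside 25.1% of all genes called. After scaling 1 of 18 base and lid subunits and 0 of 14 core subunits were called, beside 9.77% of all genes. The medians were 0.44 over the 18 and 0.28 over the 14, and the difference between these groups was not tested. None of the 3 regulators was called, with Psme4 at 0.36 (adjusted p = 0.0615), Psmf1 at 0.27 (adjusted p = 0.113) and Psme3 at 0.22 (adjusted p = 0.0769).

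Psmd11 rose from 19.3 ± 3.35 TPM (SD, n = 4) in WT at 6 months to 32.0 ± 4.98 TPM at 24 months (0.73 ± 0.14, adjusted p = 0.00252). After scaling the samples were at 22.6, 23.6, 21.0 and 22.1 at 6 months and at 29.6, 28.2, 29.2 and 36.3 at 24 months. The groups did not overlap on either scale, and the scaled difference of 0.46 ± 0.11 had an adjusted p of 0.0179. It was no longer called without WT sample 3 or 4 at 6 months or without WT sample 4 at 24 months, the highest adjusted p being 0.0672.

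Psmd8, a lid subunit that is added late in its assembly, had the next largest difference with age. It was at 77.3, 70.9, 54.6 and 75.4 TPM in WT at 6 months and at 102, 115, 77.6 and 132 TPM in WT at 24 months. Every old sample was above every young one, although the lowest old sample was nearly level with the highest young one. It rose by 0.60 ± 0.13 (adjusted p = 0.00605), or 0.33 after scaling (adjusted p = 0.185). Psmd8 had shown little difference between genotypes at 6 months (0.17 ± 0.13, adjusted p = 0.295).

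Among ubiquitin receptors and core subunits, Psmd4 and Psmb5 stood out. Psmd4 was at 68.1, 72.1, 54.0 and 59.1 TPM at 6 months and at 86.2, 88.8, 80.6 and 114 TPM at 24 months (0.54 ± 0.12, adjusted p = 0.00673, and 0.26 after scaling, adjusted p = 0.19). Psmb5 was at 124, 142, 133 and 114 TPM at 6 months and at 185, 179, 181 and 197 TPM at 24 months (0.53 ± 0.10, adjusted p = 0.00237), and its young and old samples did not overlap after scaling either (0.26, adjusted p = 0.183). The lid subunit Psmd3 rose by 0.49 ± 0.13 (adjusted p = 0.0151, and 0.22 after scaling, adjusted p = 0.25). The young and old values of Psmd3 were 28.2, 33.03, 24.6 and 23.2 TPM against 39.0, 34.7, 33.9 and 45.2 TPM. In contrast, the other catalytic subunits, Psmb6 and Psmb7, both stood at 0.20 and were not called (adjusted p = 0.101 and 0.0923). Psmg1 was the only tested member not higher in old WT muscle, at 7.96, 8.98, 7.84 and 8.18 TPM at 6 months and 8.57, 7.54, 7.42 and 9.22 TPM at 24 months (-0.01 ± 0.10, adjusted p = 0.925), and after scaling its old samples were all below its young ones (-0.28, adjusted p = 0.112).

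In TPM as deposited 24.0% of all genes were called higher with age in WT and 1.07% lower. Among markers, 2 of 4 tested leukocyte and 2 of 4 tested Schwann cell markers were called higher there. Of the others, 5 of 10 myofiber markers were higher and 3 lower, and 1 of 5 fibroblast markers was lower. After scaling 4.44% of all genes were called higher and 5.33% lower. Of the markers 1 leukocyte and 0 Schwann cell markers were then higher, and 1 myofiber marker was higher and 3 lower. Further, 4 of 5 endothelial, 1 fibroblast and 1 tendon marker were lower. The part of cell composition in the members' changes was not tested. With a Y-linked covariate in the fit, chosen after seeing the data, 26 members were called, beside 19.8% of all genes. The count rested on single samples: it was 11 without WT sample 4 at 24 months, 12 without WT sample 4 at 6 months and 16 without WT sample 3 at 6 months. The shares of all genes called in these fits were 10.5%, 9.16% and 12.4%.

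Age was also compared within UBR4 mKO. Of 43 members 1 was called, Psmd8, on either scale (6.29% of all genes, and 11.3% after scaling). At an unadjusted p under 0.05 there were 4 members (19.7% of all genes), and 8 after scaling (25.6%). The median was 0.047, beside -0.043 for all genes, and 0.10 beside 0.014 after scaling. Psmd8 was at 80.3, 72.8, 80.0 and 76.4 TPM in UBR4 mKO at 6 months and at 118, 123, 118 and 112 TPM at 24 months, so old and young samples were far apart and both groups were tight. It rose by 0.60 ± 0.13 (adjusted p = 0.0101), and by 0.66 ± 0.15 after scaling (adjusted p = 0.0115), and remained called on both scales whichever sample was left out. In the lid, Psmd8 made up 15.0% of TPM in UBR4 mKO at 6 months and 20.6% at 24 months, beside 16.9% and 19.2% in WT. Among markers 3 of 5 endothelial (4 after scaling), 2 of 3 tendon and 2 of 5 fibroblast markers were called lower with age in UBR4 mKO, 2 of 10 myofiber markers were higher and 3 lower (1 and 2 after scaling), and after scaling 1 adipocyte marker was higher. Their part was not tested.

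In TPM as deposited Psmb3 was the other member with no overlap between the ages in UBR4 mKO (4.43% of all genes higher without overlap), at 0.25 (adjusted p = 0.214). After scaling the ages did not overlap for 4 higher members, Psmb3, Psmc2, Psmd7 and Psmd8 (8.04% of all genes). Psmb5 was at 170.5, 173, 178 and 141 TPM at 6 months and at 163, 192, 209 and 229 TPM at 24 months (0.25 ± 0.10, adjusted p = 0.165). Psmc6 differed by -0.06, Pomp by -0.13 and Psma1 by -0.13, none of them called. Adding the sample totals of all 44 members gave 2565 ± 187 TPM in WT and 3260 ± 129 TPM in UBR4 mKO at 6 months, and 3294 ± 378 and 3482 ± 351 TPM at 24 months. After scaling the totals were 3004 ± 261, 2983 ± 31.1, 3178 ± 247 and 3338 ± 556.

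**Figure D5:**
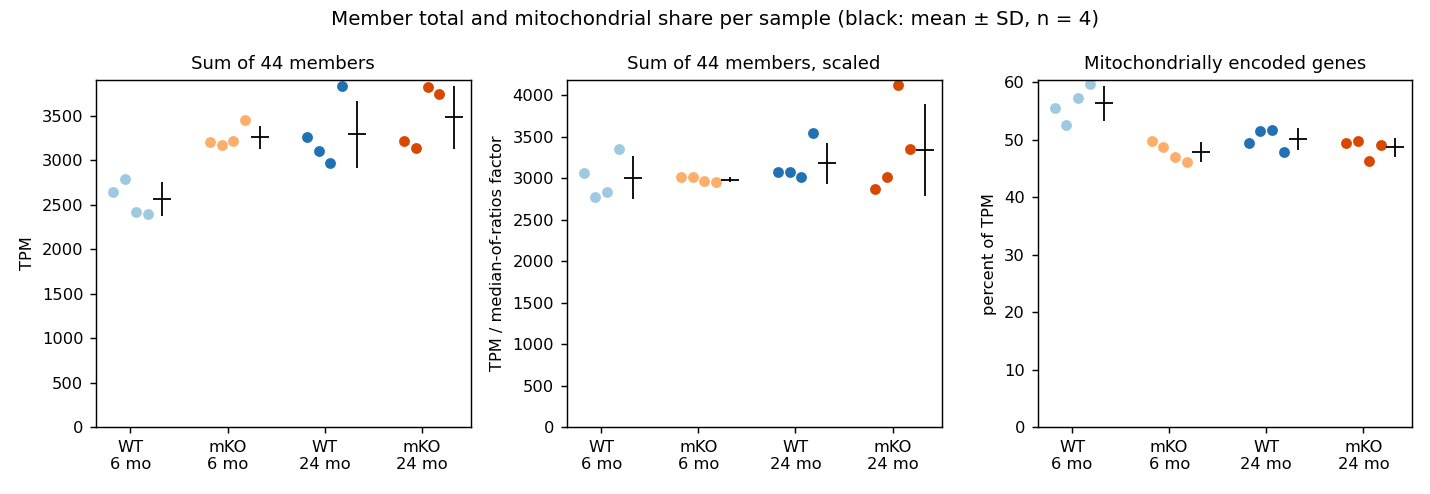
Sum of the 44 members in TPM, the same sum after median-of-ratios scaling, and the percent of TPM from mitochondrial genes, for each sample by group with mean ± SD (n = 4). WT at 6 months has the lowest sum and the highest mitochondrial percent, and the scaled sums of UBR4 mKO at 6 months lie inside the range of WT at 6 months.

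Whether the effect of UBR4 loss differed between the ages was tested with the interaction term (the genotype difference at 24 months minus that at 6 months). 2 members were called, both lower (4.70% of all genes called, 4.58% lower): Psmc6 at -0.52 ± 0.14 (adjusted p = 0.043) and Pomp at -0.57 ± 0.15 (adjusted p = 0.0444). At an unadjusted p under 0.05 there were 17 members (31.0% of all genes). The members' median was -0.26, beside -0.31 for all genes, and after scaling it was 0.068 with 0 members called (1.99% of all genes) and 1 at an unadjusted p under 0.05 (18.6% of all genes). Psmd11 had the largest term at -0.67 ± 0.20 (adjusted p = 0.0591), whereas that of Psmd8 was 0.0018 ± 0.19. The calls were fragile: Psmc6 was lost in 13 and Pomp in 12 of the 16 fits that left out 1 sample. The count reached 10 without WT sample 2 at 6 months, beside 23.4% of all genes.

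The share of each role in the members' TPM was also compared, as a description. Alpha subunits made up 20.6 to 21.2% in WT and 20.9 to 21.5% in UBR4 mKO at 6 months, and 19.5 to 20.2% and 19.5 to 20.6% at 24 months, so that within each genotype the old samples were all below the young ones. Base ATPases made up 19.6 to 19.9% in WT and 20.2 to 20.9% in UBR4 mKO at 6 months, without overlap, and 20.0 to 20.5% and 19.5 to 20.4% at 24 months, with overlap. Beta subunits made up 28.1%, 27.6%, 27.5% and 28.7% on average in WT and UBR4 mKO at 6 months and WT and UBR4 mKO at 24 months. The interferon-inducible catalytic subunits, which replace the constitutive ones in immune cells, made up 4.39% ± 0.395 and 4.72% ± 0.192 of the TPM of catalytic beta genes in WT and UBR4 mKO at 6 months and 3.70% ± 0.640 and 3.91% ± 0.428 at 24 months.

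Other genes of the pathway were taken as 6 lists of 46 genes, of which 45 were matched and tested. In UBR4 mKO at 6 months 20 rose and 0 fell, beside 44.9% of all genes called (43.7% higher), and after scaling 2 were higher and 4 lower, beside 16.8% of all genes called. The first count is near the share over all genes and the second below it. By list, these were 3 of 5 interferon-inducible proteasome genes, 6 of 11 proteasome-associated proteins, 1 of 6 ubiquitin shuttles, 3 of 8 genes of the NFE2L1 axis, 0 of 6 genes of ubiquitin supply and 7 of 9 genes of the VCP segregase, the ATPase that extracts ubiquitinated proteins. With age in WT 21 rose and 0 fell, beside 25.1% of all genes called (24.0% higher), and after scaling 2 were higher, beside 9.77% of all genes. By list these were 0 of 5, 4 of 11, 3 of 6, 5 of 8, 1 of 6 and 8 of 9 in the same order before scaling. At 24 months 0 were called between genotypes (0.630% of all genes), and 1 was lower after scaling (0.913% of all genes). With age in UBR4 mKO 0 were called (6.29% of all genes), and 3 were higher after scaling (11.3% of all genes).

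Genes of these lists called on both scales were few. Usp14, a deubiquitinase that docks on the base of the proteasome, was at 10.5, 11.3, 9.90 and 8.78 TPM in WT and at 16.6, 14.6, 14.6 and 16.4 TPM in UBR4 mKO at 6 months (0.62, adjusted p = 0.00115, and 0.27 after scaling, adjusted p = 0.0415). The VCP cofactor Plaa rose by 0.62 (adjusted p = 0.00153, and 0.26 after scaling, adjusted p = 0.0294). With age in WT the VCP cofactor Ubxn4 rose from 19.6, 22.0, 17.4 and 15.8 to 32.5, 30.5, 29.1 and 40.6 TPM (0.82, adjusted p = 0.000318, and 0.55 after scaling, adjusted p = 0.00132), and Nploc4 rose by 0.57 (adjusted p = 0.00859, and 0.29 after scaling, adjusted p = 0.0405). Nfe2l1 itself stood at 0.14 in UBR4 mKO at 6 months (adjusted p = 0.324) and rose by 0.44 with age in WT (adjusted p = 0.0162, and 0.16 after scaling, adjusted p = 0.188).

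Some members have copies or overlapping neighbours with which reads could be shared. Adrm1 has a near-identical copy, Gm9774 (99.8% identity), at a mean of 1.29 TPM. Psma2 lies on the same strand as AW209491 (10.9 TPM), while Psmc3 overlaps Slc39a13 (7.29 TPM) and Psmd13 overlaps Sirt3 (25.5 TPM, beside 33.1 TPM for Psmd13) on the opposite strand. How reads were counted by strand and between copies is not given in the sources used here, so the values of these pairs are uncertain.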

How the data were processed

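RNA was extracted from tibialis anterior muscles, and per the methods the libraries were made with a TruSeq RNA v2 kit, whereas the labels name a stranded TruSeq mRNA kit. Reads were mapped to the mouse genome (GRCm38, mm10) with CLC Genomics Workbench, and the authors deposited 1 table of TPM values per gene and sample. TPM adds up to 1000000 in each sample, so sequencing depth is unknown and no counting interval can be given, and precision rests on the 4 samples of each group. Annotation release, strand use and the treatment of reads that map to several genes are not given in the sources used here. The labels give a number to each sample of a group but do not tie it to an animal across groups, and nothing in the table marks 2 samples as the same library (0 identical pairs).

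Genes with a mean of at least 1 TPM (10628 of 47643) were tested on log2(TPM + 0.1) with limma 3.58.1 in R 4.3.3, with 4 group coefficients, a trended variance and Benjamini-Hochberg adjustment over all genes tested. A log2 fold change on this scale understates the change of low genes. The study's Kruskal-Wallis test with Dunn's test was kept as an alternative, since limma takes its spread from all groups and gives the interaction. Median-of-ratios scaling divided each sample by its median ratio to the mean sample, over genes above 0 in all samples (size factors from 0.717 to 1.17). Single values were compared with exact two-sided permutation tests over the 70 assignments of samples. Positions and overlaps come from GENCODE vM21 on GRCm38, near-identical transcripts (at least 90% identity over 200 bases) from minimap2 2.31, and promoters from RefSeq. Tables and figures were made with Python 3.11.15, pandas 2.3.3 and matplotlib 3.10.9. The fit was tested on simulated data.

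Members, gene lists (6 pathway lists and 10 lists of cell type markers) and tests were chosen with earlier results of these data known. Named members are the catalytic subunits, the highest and lowest of each role (all of a role with 3 or fewer), the member that failed the filter, and per comparison up to 5 called members farthest above and below the median of all genes; pathway genes are named where called on both scales. Other genes named beside a count, an overlap or a range were chosen after their values were seen. Alternatives were other pseudocounts and filters, scaling, mitochondrial genes left out, array weights, no variance trend, a replicate block and each sample left out. The Y-linked covariate, leaving out samples after scaling, and fits of only the compared groups after scaling were chosen after seeing the data.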

Additional observations from a re-analysis of the deposited data

Results flagged for a closer look

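Single samples stood apart within their group of 4 by Dixon's test in 10 of 140 groups tested, where chance gives about 5% (7). In UBR4 mKO at 6 months sample 4, the sample without Y-linked RNA, had Adrm1 at 42.6 TPM (others 35.8 to 36.4), Psmd7 at 148 TPM (others 123 to 126), Psmd9 at 7.26 TPM (others 6.09 to 6.28), Ubxn4 at 30.7 TPM (others 26.0 to 26.7) and a sum of all members of 3451 TPM (others 3168 to 3216). In the same group sample 2 had Plaa at 14.5 TPM (others 15.7 to 15.8). In WT at 24 months sample 4 had Psmd2 at 148 TPM (others 108 to 115), Usp14 at 17.1 TPM (others 13.1 to 13.5) and Nploc4 at 47.7 TPM (others 37.8 to 39.0). In UBR4 mKO at 24 months sample 3 had Pomp at 28.5 TPM (others 21.6 to 22.0).

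In TPM as deposited, 2 of 43 members, beside 4.70% of all genes, passed the test for a difference in the effect of UBR4 loss between the ages: Psmc6 (interaction -0.52, adjusted p = 0.043 by limma) and Pomp (-0.57, adjusted p = 0.0444). The calls were lost in 13 (Psmc6) and 12 (Pomp) of the 16 fits without 1 sample, and each in 8 of 10 other alternatives. Both genes were higher in all 4 UBR4 mKO samples than in all 4 WT samples at 6 months and overlapped between genotypes at 24 months. After median-of-ratios scaling the terms were -0.19 and -0.24, neither of them called.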

How the results depend on the processing

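Scaling decided most calls. For UBR4 mKO against WT at 6 months, where 30 members were called, the count was 0 with median-of-ratios scaling, 4 with mitochondrial genes left out, 15 with the Kruskal-Wallis and Dunn tests, 3 with a replicate block and scaling, and 0 with a Y-linked covariate and scaling, beside 16.8%, 14.8%, 23.4%, 15.0% and 14.8% of all genes (44.9% in TPM as deposited). The median of 0.35 became -0.0080, 0.090, -0.0080 (block) and -0.013 (covariate) under the settings that rescale. For age in WT, where 27 were called, the count was 1 with scaling, 6 without mitochondrial genes, 41 with array weights, 1 with block and scaling, 0 with Kruskal-Wallis and Dunn tests, and 1 with covariate and scaling, beside 9.77%, 9.45%, 61.5%, 8.38%, 0.00% and 5.09% of all genes (25.1% in TPM as deposited). The median of 0.35 became 0.074, 0.16, 0.074 and 0.078. For age in UBR4 mKO the rank tests called 0 in place of 1, but they called 0.00% of all genes in this comparison. The interaction count of 2 was 0 with no filter, with scaling, without mitochondrial genes, with no variance trend, with the block, with the covariate, and with either of these and scaling, but 19 with array weights (26.9% of all genes, against 4.70%), and its median of -0.26 became 0.068, -0.051, 0.068 and 0.068. After scaling, fits of only the compared groups called 5 members between genotypes at 6 months (24.5% of all genes) and 2 (Psmb5 and Psmd11) for age in WT (15.5% of all genes), and a replicate block called 3 at 6 months (Psmc6 and Psmd11 higher, Psme4 lower). The cause of these differences was not tested.

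Among the named members called in TPM as deposited, those below 0 after scaling at 6 months were Psma2 (-0.0047, and -0.0070 with the covariate), Psma3 (-0.077 and -0.072), Psmb6 (-0.045 and -0.052), Psmb7 (-0.13 and -0.13, and -0.031 without mitochondrial genes), Psmd2 (-0.046 and -0.039), Psmd7 (-0.069 and -0.058), Psme3 (-0.068 and -0.057) and, with the covariate, Psmb5 (-0.013), and for age in WT it was Psma3 (-0.015). The block with scaling gave the same values as scaling alone.

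With each sample left out in turn, the counts ran from 22 (without WT sample 4 at 6 months, 25.8% of all genes) to 33 (without WT sample 2 at 6 months, 58.7%) at 6 months. At 24 months they ran from 0 to 0 (0.0753% to 0.621%). For age in WT they ran from 11 (without WT sample 4 at 24 months, 10.5%) to 36 (without UBR4 mKO sample 3 at 24 months, 39.3%). For age in UBR4 mKO they ran from 1 to 2 (2 without UBR4 mKO sample 1 at 24 months, 5.73%). For the interaction they ran from 0 to 10 (10 without WT sample 2 at 6 months, 23.4%). The medians ran from 0.31 to 0.37, 0.023 to 0.12, 0.27 to 0.40, -0.0056 to 0.10 and -0.31 to -0.20. After scaling these counts ran from 0 to 5, 0 to 0, 0 to 2, 1 to 4 and 0 to 0. Without UBR4 mKO sample 3 at 24 months, 5 members were called after scaling at 6 months and 2 with age in WT, beside 28.0% and 18.9% of all genes. Without UBR4 mKO sample 1 at 24 months, 4 were called after scaling with age in UBR4 mKO, beside 10.9% of all genes. Psmd11, Psmc6, Pomp, Psma1 and Psma5 stayed called at 6 months in all 16 such fits in TPM as deposited, whereas Psmb7 was lost in 10 of them. A replicate block called 29, 0, 26, 1 and 0 members, beside 39.9%, 0.358%, 19.0%, 5.01% and 2.67% of all genes. Correlations between same-numbered samples ran from -0.35 to 0.18. Differently numbered samples were not compared, so whether the numbers pair the samples is unknown.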
